A study of Mus musculus with 12 samples.

Results

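*Nqo2*, the quinone reductase that was lower in hepatocytes after AAV-Cre, was set beside 9 antioxidant and stress-response genes that are regulated by the transcription factor NRF2 or that regulate it. The 10 genes were *Nqo2*, *Nqo1*, *Gclc*, *Gclm*, *Hmox1*, *Txnrd1*, *Srxn1*, *Gsr*, *Keap1* and *Nfe2l2*. *Nqo2* was chosen from its measured difference between these same arrays, so its values and its calls are given as a description and support nothing. The other 9 genes were chosen by their place in the pathway, and their probes had only to be detected on at least 1 array (a detection p-value of at most 0.05). Of the 10 genes, 9 had a probe named to them, and all 16 of their probes passed, 3 for *Nqo2* and 13 for the other 8 genes, out of 20561 probes kept in all. *Gsr*, glutathione reductase, carried no named probe and was not analysed here. On all 12 arrays 15 of the 16 probes were detected. The exception was the *Hmox1* probe.

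All samples were total RNA of hepatocytes purified on a Percoll density gradient from mice of the strain C57BL/6 x 129Sv, aged 2.5 to 4.5 months and homozygous for floxed *Gata4* and *Gata6* (*Gata4,6* fl/fl). The AAV-Cre group, 6 samples, had been injected intravenously 2 weeks earlier with AAV8-Tbg-Cre, which carries Cre recombinase. The AAV-GFP group, 6 samples, had received the matching virus with green fluorescent protein at the same time, so both groups carried the floxed alleles and a virus. The thyroxine-binding globulin promoter (Tbg) limits Cre to hepatocytes, and the alleles of other liver cells are left intact. Each sample was hybridised to 1 array of the MouseWG-6 v2 BeadChip. Whether each sample came from its own animal is not stated in the labels, so a p-value below reflects the scatter among these samples, which may be technical.

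NRF2, the product of *Nfe2l2*, is made continuously and is normally handed to the proteasome by KEAP1, which bridges it to a CUL3 ubiquitin ligase. Oxidants and electrophiles modify KEAP1, NRF2 then reaches the nucleus, pairs with a small MAF protein and binds antioxidant response elements (AREs) in genes for glutathione synthesis, thioredoxin recycling, heme breakdown and quinone reduction. NQO1 and NQO2 are related flavoproteins that reduce quinones. NQO1 uses NADPH or NADH as its electron donor, whereas NQO2 uses dihydronicotinamide riboside and barely uses NADPH. In the liver this set of genes takes part in the handling of drugs and of reactive metabolites.

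Promoter sequence was read for the members from RefSeq windows of 300 bases (250 before and 50 after an annotated start, build GRCm38.p6), because an ARE is the sequence through which NRF2 acts and GATA motifs are those of the excised factors. Windows were present for 7 of the 10 members, 10 windows in all. *Gclc*, *Hmox1* and *Gsr* are named only. The ARE core was searched as TGACNNNGC, and the GATA motif as the letters GATA preceded by A or T and followed by A or G, both on either strand. The ARE core was present in 12.4% of all 32851 windows of the table and a GATA motif in 29.8%. Among the members, an ARE core was found in the windows of *Gclm*, *Srxn1* and *Nfe2l2* and in 1 of the 3 windows of *Txnrd1*, and a GATA motif in that of *Keap1*. Neither motif was found in the window of *Nqo1* or in either window of *Nqo2*. That says only that these letters are not in these windows, and other spellings of either motif were not searched. The first *Nqo2* window is shown whole, since *Nqo2* leads the set, and the stretches around the 5 matches are shown beside it with the matching bases in capitals. A match read on the other strand appears as its reverse complement.
Nqo2 (chr13:33964409-33964708, + strand): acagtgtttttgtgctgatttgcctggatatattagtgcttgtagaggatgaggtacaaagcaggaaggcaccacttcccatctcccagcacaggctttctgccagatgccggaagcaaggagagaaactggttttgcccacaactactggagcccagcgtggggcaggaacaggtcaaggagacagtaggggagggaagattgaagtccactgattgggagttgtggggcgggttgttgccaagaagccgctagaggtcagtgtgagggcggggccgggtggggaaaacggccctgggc
Gclm, ARE core (chr3:122245407-122245447, + strand): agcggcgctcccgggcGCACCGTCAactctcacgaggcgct
Txnrd1, ARE core (chr10:82859098-82859138, + strand): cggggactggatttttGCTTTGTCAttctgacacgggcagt
Srxn1, ARE core (chr2:152105536-152105573, + strand): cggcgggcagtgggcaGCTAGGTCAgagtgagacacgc
Nfe2l2, ARE core (chr2:75704879-75704913, - strand): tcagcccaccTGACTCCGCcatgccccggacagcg
Keap1, GATA motif (chr9:21239439-21239476, - strand): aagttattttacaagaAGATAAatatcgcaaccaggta

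Values are log2 of the quantile-normalized signal, and differences are AAV-Cre minus AAV-GFP. Each array detected 14318 to 16381 probes, and the lowest detected signal per array averaged 8.22 on the log2 scale. The targeted genes were examined first. *Gata4* was at background, 8.06 ± 0.27 on AAV-Cre and 7.87 ± 0.14 on AAV-GFP arrays (SD, n = 6 each). *Gata6* probe ILMN_2868133 lay at 11.59 ± 0.37 on AAV-Cre and 9.88 ± 0.23 on AAV-GFP arrays. The other *Gata6* probe, ILMN_1255968, was near background. It lay at 8.31 ± 0.21 on AAV-Cre arrays, detected on 4 of 6, and at 8.04 ± 0.15 on AAV-GFP arrays, detected on 0 of 6. A higher signal of a targeted gene goes against the label, unless these probes lie outside the deleted part, and their place in the transcript was not known here. Every direction below is therefore that of arrays labelled AAV-Cre against arrays labelled AAV-GFP. Array AAV-Cre replicate 3 stood apart by sex-linked transcripts, with *Xist* at 13.31 against 7.70 to 7.95 on the other 11 arrays and *Eif2s3y* at 7.75 against 11.53 to 11.89, and results that rest on it are given without it too. Hepatocyte markers were measured for 7 of 10 listed genes, of which 6 were detected on every array. Their mean log2 value was 11.82 to 12.16 on AAV-Cre and 11.65 to 12.28 on AAV-GFP arrays. Markers of Kupffer cells, endothelium, stellate cells, bile duct and red cells also included genes detected on every array. Of the neutrophil and lymphocyte markers 0 were, and each lymphocyte marker was detected on at most 1 array of a group. Over these 7 cell types 0 of 34 measured genes passed limma's threshold, where 0.165% of all kept probes did. The stellate cell marker *Reln* had the lowest p of them, with a difference of -0.88 (SE 0.21, limma adjusted p = 0.21).

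*Nqo2* was read by 3 probes and each gave a lower signal in AAV-Cre hepatocytes. Probe ILMN_2968731, the most intense, ran from 12.27 through a median of 12.45 to 12.59 on AAV-Cre arrays, and from 12.94 through 13.03 to 13.23 on AAV-GFP arrays. The lowest AAV-Cre array was replicate 3 and the highest replicate 6, and the 2 groups did not overlap. The means were 12.42 ± 0.12 on AAV-Cre and 13.05 ± 0.11 on AAV-GFP arrays (SD, n = 6 each), a difference of -0.63 (SE 0.07, 95% confidence interval -0.78 to -0.47), or 1.55-fold lower in AAV-Cre. Probe ILMN_1247930 ran from 10.88 through 11.13 to 11.37 on AAV-Cre arrays, and from 11.51 through 11.66 to 11.82 on AAV-GFP arrays. Again no array of one group reached the other, and the difference was -0.55 (SE 0.09, interval -0.74 to -0.35), or 1.46-fold lower in AAV-Cre.

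The third probe, ILMN_2968729, ran from 11.78 through 11.91 to 12.05 on AAV-Cre arrays, and from 12.03 through 12.63 to 12.80 on AAV-GFP arrays. Here 1 array decided whether the groups overlapped. AAV-GFP replicate 6 lay at 12.03, just under the highest AAV-Cre array at 12.05, while the next AAV-GFP array was at 12.60. On the other probes that same array lay with its group, at 12.94, the lowest of the 6, and at 11.57. The difference was -0.64 (SE 0.11, interval -0.88 to -0.40), and -0.75 without AAV-GFP replicate 6. The sources used here do not say which part of the transcript each probe reads.

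All 3 *Nqo2* probes passed limma's adjusted p under 0.05, where 0.165% of all kept probes did (34 of 20561, 5 higher and 29 lower), and 2 of the 3 did not overlap between groups, where 0.501% of all probes did not. Nothing is read from these counts, because *Nqo2* was chosen on this contrast. The same holds for the counts of fits that follow. ILMN_2968731 passed in all 12 fits that left out 1 array, with differences of -0.66 to -0.59, and lay at -0.60 without AAV-Cre replicate 3. ILMN_1247930 did not pass when AAV-Cre replicate 4 or 5 or AAV-GFP replicate 1, 3, 4 or 5 was left out, with differences between -0.59 and -0.50 over the 12 fits, and ILMN_2968729 passed only without AAV-Cre replicate 1 or without AAV-GFP replicate 6. Scaling the arrays to a common median gave -0.57, -0.58 and -0.48 for the 3 probes, and then none of them passed.

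**Figure D1:**
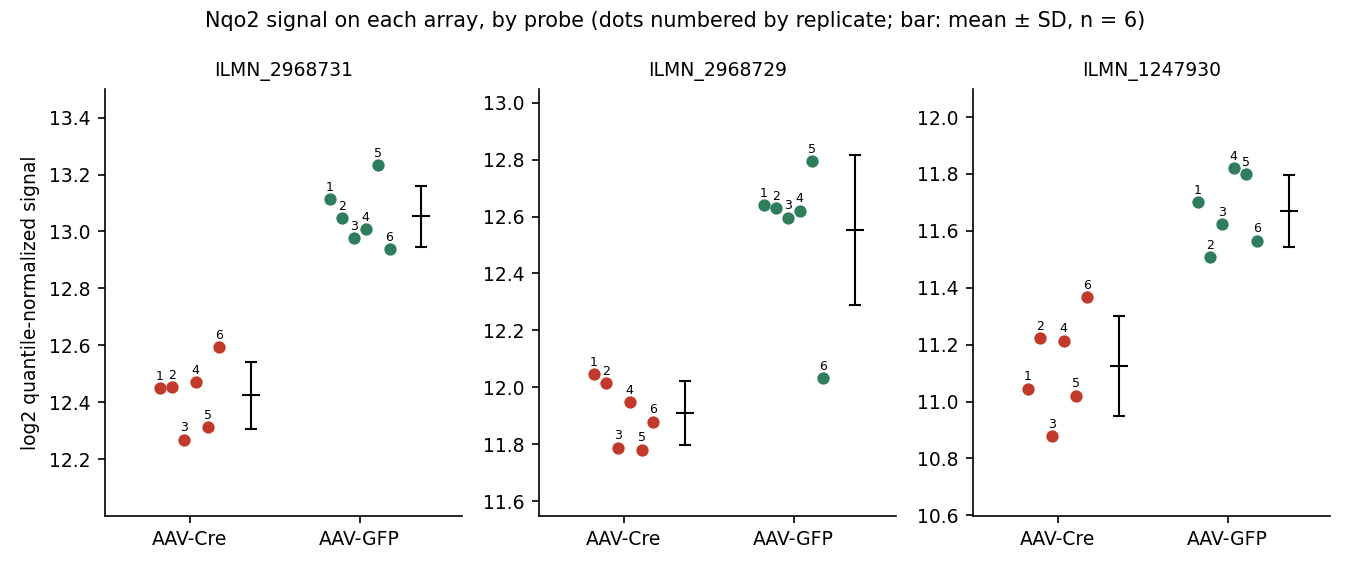
Log2 quantile-normalized signal of the 3 Nqo2 probes on each of 6 AAV-Cre arrays (red) and 6 AAV-GFP arrays (green), with dots numbered by replicate and black bars for the mean ± SD; each panel spans the same number of log2 units. The groups are apart at ILMN_2968731 and ILMN_1247930, and at ILMN_2968729 only AAV-GFP replicate 6, at 12.03, lies within the AAV-Cre values.

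None of the 13 probes of the other 8 measured genes passed. Counted over all kept probes, 0 of them were called by limma or by SAM, 0 had an unadjusted p under 0.05 in limma (1039 of the 20561 kept probes did), and 0 had groups that did not overlap. Their differences ran from -0.25 at *Nfe2l2* to 0.39 at *Hmox1*, 8 below and 5 above 0, with a median of -0.04, against 0.002 over all probes. Every one of the 13 confidence intervals held 0. Every one also lay above -0.63, the difference of the most intense *Nqo2* probe, with the nearest lower bound at -0.56 for *Nfe2l2*. Of the 13, 12 lay above the whole interval of that probe, -0.78 to -0.47. *Nqo2* was chosen on this contrast, so these comparisons with it support nothing. The exported signal also holds the background, which compresses differences at dim probes such as those of *Nqo1* and *Txnrd1*. Exact permutation tests, two-sided, of each probe's difference gave p between 0.149 and 0.879, the lowest being 0.864 after Benjamini-Hochberg adjustment over the 13 probes, and the design could have reached 0.00216. A p that misses the threshold does not show that the levels were alike. The intervals give the sizes that these arrays leave possible on this scale, without background correction. Without AAV-Cre replicate 3 the 13 differences ran from -0.22 at *Nfe2l2* to 0.56 at *Hmox1*, again with 0 calls.

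**Figure D2:**
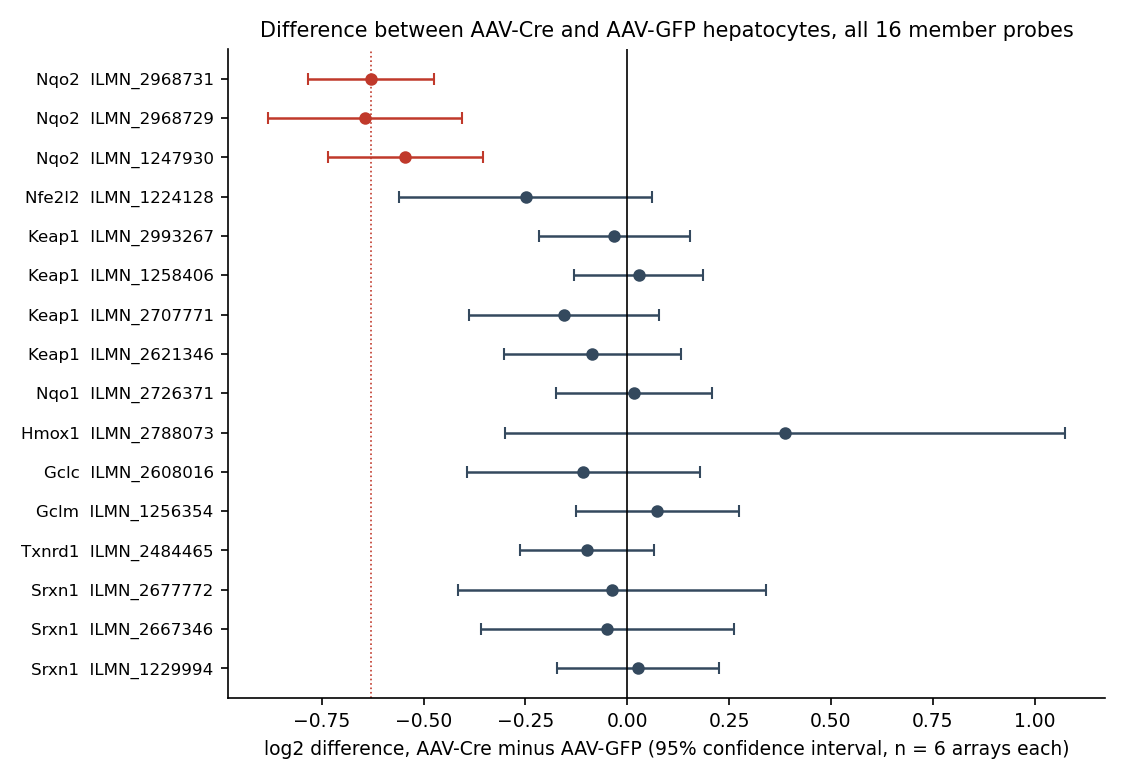
Log2 difference, AAV-Cre minus AAV-GFP, with its 95% confidence interval for all 16 member probes (n = 6 arrays in each group), Nqo2 in red and the other genes in grey. The red dotted line marks -0.63, the difference of the most intense Nqo2 probe, and the intervals of the 13 other probes lie to its right and hold 0. Nqo2 was chosen on this contrast, and 12 of those 13 intervals lie above that probe's whole interval.

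The regulators came first in the pathway. *Nfe2l2*, which encodes NRF2 itself, ran from 9.31 through 9.62 to 10.02 on AAV-Cre arrays, and from 9.52 through 9.87 to 10.27 on AAV-GFP arrays. The lowest 3 of the 12 arrays were AAV-Cre replicates 5, 2 and 3, and the groups overlapped over most of their range. Its difference was -0.25 (SE 0.14, interval -0.56 to 0.06), the lowest among the 13 probes, with an exact permutation p of 0.149 and a limma adjusted p of 1.00. Leaving out any 1 of the 12 arrays kept the sign (-0.33 to -0.18).

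*Keap1*, the sensor that marks NRF2 for breakdown, was read by 4 probes. The most intense, ILMN_2993267, ran from 10.70 through 10.77 to 10.91 on AAV-Cre arrays, and from 10.62 through 10.79 to 11.17 on AAV-GFP arrays. The AAV-Cre values all lay within the AAV-GFP range. Its difference was -0.03 (SE 0.09, interval -0.22 to 0.15, exact permutation p = 0.781). ILMN_1258406 differed by 0.03 (interval -0.13 to 0.19), the narrowest interval of the 13, ILMN_2707771 by -0.16 (interval -0.39 to 0.08) and ILMN_2621346 by -0.09 (interval -0.30 to 0.13). The 4 probes therefore had no common sign. At ILMN_2621346, AAV-Cre replicate 1 lay at 9.87 while the other 5 AAV-Cre arrays ran from 9.19 to 9.44, and without that array the difference was -0.17.

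*Nqo1*, the NADPH-using relative of *Nqo2* and the textbook NRF2 target, ran from 8.40 through 8.51 to 8.92 on AAV-Cre arrays, and from 8.38 through 8.55 to 8.71 on AAV-GFP arrays. Its highest value was that of AAV-Cre replicate 3, the array set apart by sex-linked transcripts, and the other 11 arrays lay together. The difference was 0.02 (SE 0.09, interval -0.18 to 0.21, exact permutation p = 0.879), and -0.06 without AAV-Cre replicate 3. The probe was detected on every array, but its signal lay little above the lowest detected one. The exported signal still holds the background, and a change at such a dim probe is compressed. With normexp background correction the *Nqo1* difference was 0.03 and still did not pass.

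*Hmox1*, heme oxygenase, which opens the heme ring, varied most of the members. It ran from 8.16 through 9.04 to 10.10 on AAV-Cre arrays, and from 8.00 through 8.50 to 9.55 on AAV-GFP arrays. Replicate 4 was the highest array of both groups, and the groups overlapped. The probe was detected on 5 of 6 arrays of each group. The missing ones were AAV-Cre replicate 3, with a detection p of 0.0502, just outside the limit of 0.05, and AAV-GFP replicate 2, with 0.215, while AAV-Cre replicate 1 was just inside at 0.0288. The difference was 0.39 (SE 0.32, interval -0.30 to 1.07, exact permutation p = 0.316), 0.17 without AAV-Cre replicate 4, 0.56 without AAV-Cre replicate 3, 0.57 without AAV-GFP replicate 4 and 0.69 with normexp, and it passed in none of these. Of the members it had the widest interval, so these arrays leave any difference of *Hmox1* between -0.30 and 1.07 possible.

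Since *Hmox1* is also made in macrophages and answers to stress, the marker lists were set beside it. Mean log2 values of the 8 measured macrophage markers ran from 8.27 to 9.16 on AAV-Cre and from 8.06 to 9.17 on AAV-GFP arrays, 3 of the 8 being detected on every array. The summed signal of these markers was 2554 to 5100 on AAV-Cre and 2164 to 5453 on AAV-GFP arrays. After removal of group means, *Hmox1* correlated over the 12 arrays with their mean at r = -0.10, with those of the 3 measured red-cell and the 5 measured neutrophil markers at 0.47 each and with that of 11 isolation stress and immediate early genes at -0.84. AAV-GFP replicate 4, the highest AAV-GFP array for *Hmox1*, was also the highest of its group for the red-cell, neutrophil, lymphocyte, macrophage and endothelial means. It lay at 10.85 for red cells (other 5 arrays 9.76 to 9.88), 9.11 for neutrophils (7.89 to 8.03) and 8.29 for lymphocytes (7.83 to 7.97). For macrophages it lay at 9.17 (8.06 to 8.82) and for endothelium at 9.41 (8.63 to 9.37). AAV-Cre replicate 4, the highest of all 12 arrays for *Hmox1*, was the highest of its group for 0 of these means. It lay at 9.92 for red cells (AAV-Cre arrays 9.88 to 10.19), 8.13 for neutrophils (7.98 to 8.30) and 7.87 for lymphocytes (7.81 to 8.13). For macrophages it lay at 8.29 (8.27 to 9.16) and for endothelium at 8.85, the lowest of its group. These correlations describe 12 arrays that share their preparation and carry no test, and the part of these lists in the *Hmox1* values was not tested.

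*Gclc* and *Gclm*, the catalytic and modifier subunits of glutamate-cysteine ligase, make the first step of glutathione synthesis. *Gclc* ran from 8.89 through 9.06 to 9.34 on AAV-Cre arrays, and from 8.89 through 9.20 to 9.59 on AAV-GFP arrays. The 2 highest arrays were AAV-GFP replicates 5 and 3, and the remaining ones mingled. Its difference was -0.11 (SE 0.13, interval -0.39 to 0.18, exact permutation p = 0.446). *Gclm* ran from 12.84 through 13.11 to 13.18 on AAV-Cre arrays, and from 12.72 through 12.97 to 13.24 on AAV-GFP arrays. The AAV-Cre values again lay inside the AAV-GFP range. Its difference was 0.07 (SE 0.09, interval -0.13 to 0.27, exact permutation p = 0.439), so both subunits were within the spread between arrays.

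*Txnrd1*, thioredoxin reductase, ran from 8.39 through 8.50 to 8.70 on AAV-Cre arrays, and from 8.47 through 8.65 to 8.79 on AAV-GFP arrays. The 3 lowest arrays were AAV-Cre, with most others shared between the groups. The difference was -0.10 (SE 0.08, interval -0.26 to 0.07, exact permutation p = 0.188). This was another dim probe, and with normexp the difference was -0.24 without passing.

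*Srxn1*, sulfiredoxin, which restores overoxidised peroxiredoxins, was read by 3 probes. The most intense, ILMN_2677772, ran from 10.42 through 10.83 to 11.39 on AAV-Cre arrays, and from 10.40 through 10.98 to 11.38 on AAV-GFP arrays. The 2 ranges were nearly identical. Differences were -0.04 (interval -0.42 to 0.34), -0.05 at ILMN_2667346 (interval -0.36 to 0.26) and 0.03 at ILMN_1229994 (interval -0.17 to 0.22), with exact permutation p of 0.846, 0.755 and 0.773. The sign of each of the 3 changed when certain single arrays were left out, so no direction can be given for *Srxn1*.

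**Figure D3:**
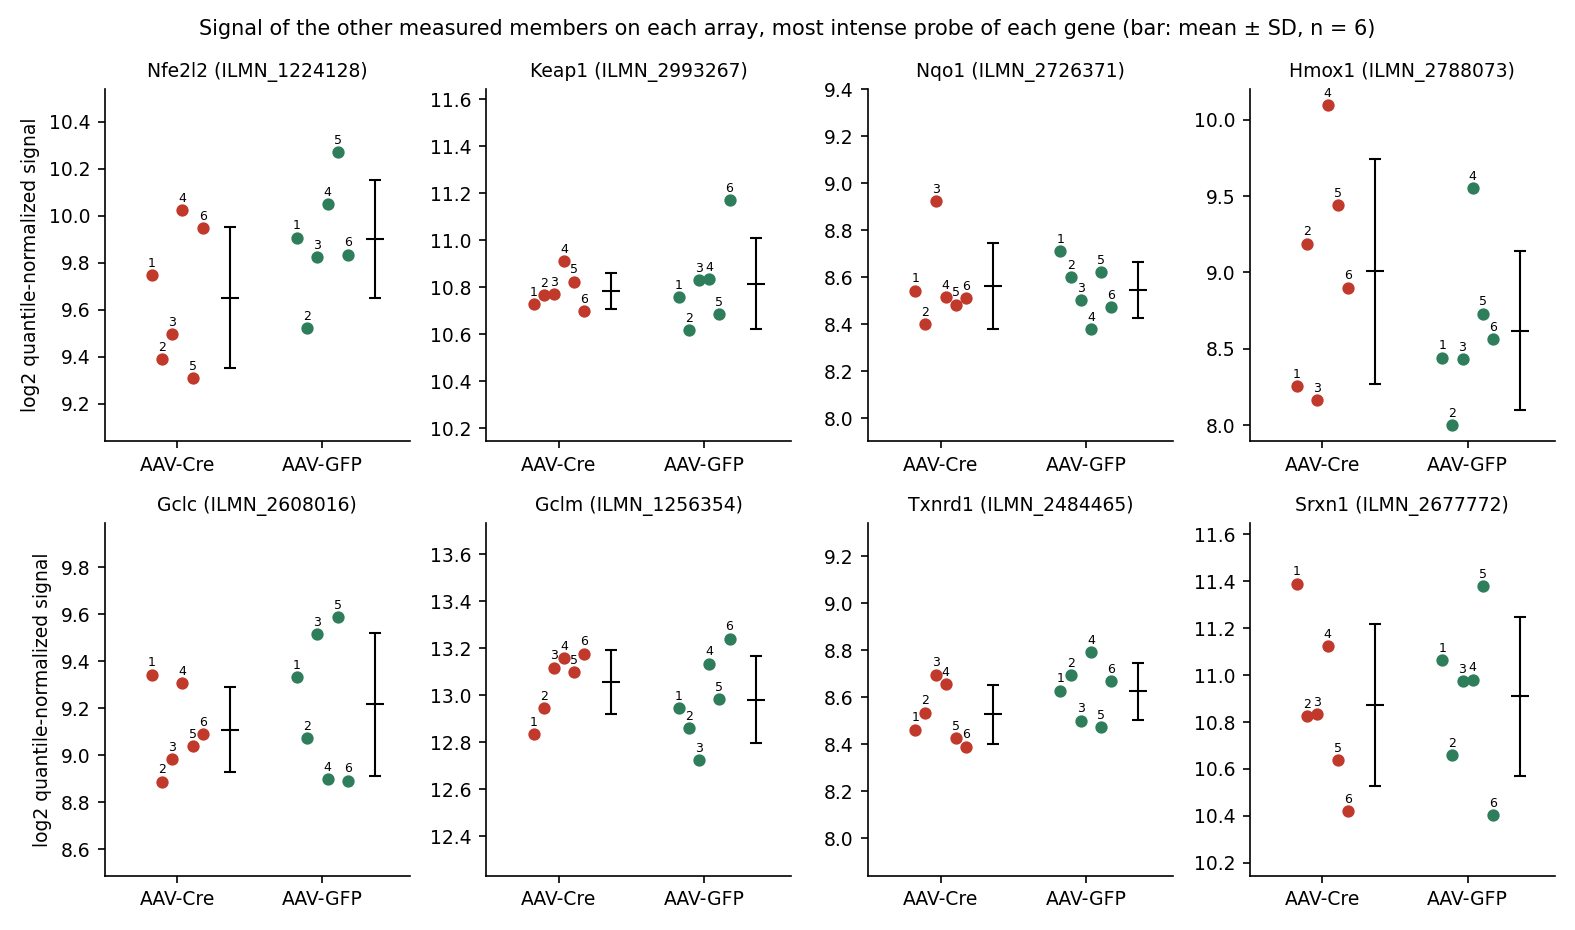
Log2 quantile-normalized signal of the most intense probe of the 8 other measured genes on each of 6 AAV-Cre arrays (red) and 6 AAV-GFP arrays (green), dots numbered by replicate, black bars for the mean ± SD. The groups overlap in every panel; AAV-Cre replicate 3 stands out for Nqo1 at 8.92, and replicate 4 is the highest Hmox1 array of both groups.

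Variation from array to array within the groups was examined next, with each group's mean removed and 1 probe per gene, the most intense. Across the 12 arrays *Nqo2* correlated with the 8 other genes at r between -0.49 and 0.65, with a median of 0.02. The 28 pairs among the other genes ran from -0.61 to 0.70, with a median of 0.11. These pairs include the regulators *Nfe2l2* and *Keap1* and several dim probes, so nothing is read from them about the NRF2 target genes. *Nfe2l2* was the member most like *Nqo2* at this probe, ILMN_2968731 (Pearson r = 0.65, Spearman rho = 0.60, 0.54 without the 2 arrays farthest from the median). Among the AAV-Cre arrays alone its r was 0.71 and among the AAV-GFP arrays 0.57. *Gclc* followed at 0.48 and *Srxn1* at 0.32, while *Txnrd1* lay at -0.46 and *Keap1* at -0.49. *Nqo1* gave -0.12 over the 12 arrays, -0.58 among the AAV-Cre and 0.67 among the AAV-GFP arrays, and 0.28 without the 2 outermost arrays. Over 16565 named probes the 5th and 95th percentiles of r with *Nqo2* were -0.48 and 0.50. Only *Nfe2l2* and *Keap1* among the 8 lay outside them. The other *Keap1* probes gave -0.06, -0.08 and 0.36 with the same *Nqo2* probe. With *Nqo2* probe ILMN_1247930 *Nfe2l2* gave 0.68. With ILMN_2968729 it gave only 0.28, below *Srxn1* at 0.72 and *Gclc* at 0.57, so the order depended on the probe. All these values are descriptions over 12 points from the same arrays and carry no test.

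Agreement between probes of 1 gene gives a scale for these numbers. The 3 *Nqo2* probes correlated with each other at 0.40 to 0.76, the 3 *Srxn1* probes at 0.56 to 0.91, and the 4 *Keap1* probes at -0.27 to 0.69. The *Keap1* probes thus did not follow each other closely.

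The same correlation with *Nqo2* was then taken for all 16565 named probes, every probe of a gene and not only the most intense. The 5 genes with the highest value at any probe were *Cyb5r3* (r = 0.92), *Tulp2* (0.87), *Them7* (0.86), *Resf1* (0.86) and *Prss8* (0.85). *Cyb5r3* encodes cytochrome b5 reductase, another flavoprotein that takes electrons from a nicotinamide cofactor. Its probe ILMN_2904686 correlated at 0.89 among the AAV-Cre and at 0.97 among the AAV-GFP arrays, and AAV-Cre replicate 6 and AAV-GFP replicate 5 were the highest arrays of their groups for both genes. Its 2 other probes followed *Nqo2* less closely, with r = 0.78 at ILMN_2712873, the most intense, and 0.50 at ILMN_2636832. ILMN_2904686 did not share the difference between groups, with 9.83 ± 0.22 on AAV-Cre and 9.91 ± 0.30 on AAV-GFP arrays (SD, n = 6 each, difference -0.08, SE 0.14, limma adjusted p = 1.00). *Tulp2* was detected on 1 of 6 AAV-Cre and 2 of 6 AAV-GFP arrays and *Prss8* on 0 and 2, so their values lie in the background. *Them7*, a thioesterase family gene, differed by 0.10 (SE 0.14) and *Resf1*, a retroelement silencing factor, by -0.01 (SE 0.08), and neither passed. These 5 were picked as the highest among 16565 probes, and no test was made of their likeness.

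**Figure D4:**
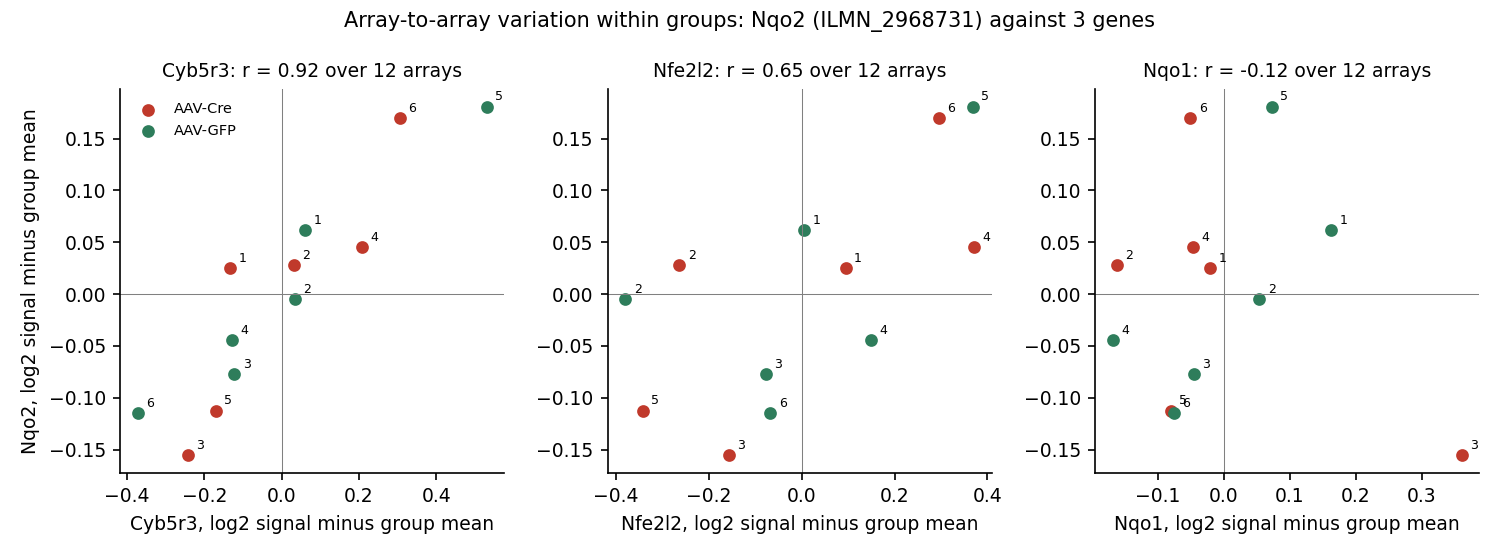
Nqo2 (probe ILMN_2968731) against Cyb5r3, Nfe2l2 and Nqo1, each as log2 signal minus its group mean, for 6 AAV-Cre (red) and 6 AAV-GFP (green) arrays numbered by replicate. Cyb5r3 follows Nqo2 at r = 0.92 and Nfe2l2 at 0.65, while Nqo1 gives -0.12 with AAV-Cre replicate 3 far to the right.

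*Nqo2* lies on mouse chromosome 13, and the 5 annotated genes on either side were looked up in the RefSeq order. Named probes were kept for 3 of these 10, and none passed. The serpin genes *Serpinb6c* and *Serpinb6a* differed by 0.08 (SE 0.11) and 0.07 (SE 0.11), the first being detected on 3 of 6 AAV-Cre and 4 of 6 AAV-GFP arrays. The tubulin gene *Tubb2b* had 4 probes, of which only ILMN_2588051 was detected on every array. It ran from 9.48 to 13.04 on AAV-Cre and from 9.88 to 12.33 on AAV-GFP arrays, a difference of -0.21 (SE 0.68) within a very wide spread. The genes directly next to *Nqo2*, *1110046J04Rik* and *Ripk1*, had no named probe and were not analysed here.

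The wider pathway was then counted in 10 gene lists, with 1 probe per gene and calls taken over all kept probes. Over all 10838 named genes 4 were called higher and 19 lower, with a median difference of 0.0008. Among the 11 measured NRF2 regulators 0 were called (median 0.06). The lowest p was that of *Nfe2l1*, the NRF2-related factor NRF1, with 0.28 (SE 0.09, limma adjusted p = 0.63), the opposite sign to *Nfe2l2*. None of 8 genes of glutathione synthesis and recycling was called (median 0.02). *Ggct*, which cleaves gamma-glutamyl amino acids, differed by 0.32 (SE 0.21), and by 0.12 (SE 0.13) without AAV-Cre replicate 3. The mitochondrial glutaredoxin *Glrx2* differed by 0.12 (SE 0.09). Of the 10 genes of the thioredoxin and peroxiredoxin system 0 were called. Their median was -0.04, with 9 of 10 below 0 and the lowest p at thioredoxin itself, *Txn1*, at -0.18 (SE 0.09, limma adjusted p = 1.00), then at *Prdx4*, a peroxiredoxin of the secretory pathway, at -0.14 (SE 0.10).

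Enzymes that remove superoxide and peroxide gave 0 calls among 6 genes (median 0.03). *Gpx7* was detected on 3 of 6 AAV-Cre and 0 of 6 AAV-GFP arrays (difference 0.37, limma adjusted p = 0.80). Without AAV-Cre replicate 3 its difference was 0.24 (SE 0.09). *Sod2*, the mitochondrial superoxide dismutase, differed by 0.15 (SE 0.07, limma adjusted p = 0.98). Heme breakdown and iron storage gave 0 of 5 (median 0.02). There *Ftl1*, the ferritin light chain, lay at 15.49 on AAV-Cre and 15.67 on AAV-GFP arrays (difference -0.18, SE 0.06, limma adjusted p = 0.59), and biliverdin reductase *Blvrb* differed by -0.20 (SE 0.11), signs opposite to that of *Hmox1*. NADPH supply gave 0 of 5 (median -0.03), with *Idh1* at -0.19 (SE 0.09) and malic enzyme *Me1* at 0.75 (SE 0.56), *Me1* being detected on 5 of 6 AAV-Cre and 3 of 6 AAV-GFP arrays.

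In the list of quinone and carbonyl reductases 9 of the 10 genes had not been chosen on this contrast, and 0 of those 9 were called (list median -0.05, *Nqo2* included). The call of the tenth, *Nqo2*, came with its choice and says nothing about the list. *Aox3*, a liver aldehyde oxidase, had a difference of the same size, -0.68, but with an SE of 0.31. Its AAV-Cre values ran from 13.52 through 15.32 to 15.80 and its AAV-GFP values from 15.39 through 15.78 to 15.94, so the groups overlapped and it did not pass (limma adjusted p = 0.98). The value of 13.52 was that of AAV-Cre replicate 3, and without that array, a setting chosen after seeing the data, the difference was -0.37 (SE 0.18). *Cyb5r3*, at its most intense probe, differed by -0.16 (SE 0.15), and by -0.06 (SE 0.13) without AAV-Cre replicate 3. Among 9 genes of nicotinamide riboside and NAD supply, 0 were called (median -0.01). Supply of dihydronicotinamide riboside, the electron donor of NQO2, was not measured. *Nnmt*, which methylates nicotinamide, had the largest difference of the list, 2.25, with an SE of 0.86 (limma adjusted p = 0.80). It ran from 10.88 to 14.61 on AAV-Cre and from 8.82 to 14.38 on AAV-GFP arrays. *Nampt*, which makes nicotinamide mononucleotide, differed by 0.14 (SE 0.20), and by 0.07 (SE 0.21) without AAV-Cre replicate 3.

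The list of NRF2-inducible conjugation enzymes and exporters had a median apart from 0, although 0 of its 15 genes were called. Its median was -0.45, with 12 of 15 genes below 0 where 49.7% of all genes were, and single differences ran from -1.38 to 0.46. The 12 below 0 were all enzymes, and the 3 above 0 were the exporters of the list. These were *Abcc3* at 0.46 (SE 0.15, limma adjusted p = 0.63), *Abcc2* at 0.25 (SE 0.22) and *Abcc4* at 0.09 (SE 0.11). *Abcc4* was detected on 2 of 6 AAV-Cre and 1 of 6 AAV-GFP arrays. The -1.38 was that of *Mgst1* (SE 0.96), whose values spread widely on AAV-Cre arrays (SD 2.71, against 0.35 on AAV-GFP arrays). *Gstm4* and *Gstm1*, glutathione S-transferases of the mu class, had the lowest p, with 10.57 on AAV-Cre and 11.22 on AAV-GFP arrays for *Gstm4* (difference -0.65, SE 0.15, limma adjusted p = 0.17) and 14.68 on AAV-Cre and 15.21 on AAV-GFP arrays for *Gstm1* (difference -0.53, SE 0.15, limma adjusted p = 0.41). Transferases of 1 class are related in sequence and may share signal between probes, so these counts need not be of independent genes. Part of the median rested on AAV-Cre replicate 3. Without it the median was -0.16, with 10 of 15 genes below 0, differences of -1.55 to 0.42 and again 0 calls. *Gstp1*, a pi-class transferase, moved most, since that array lay at 13.25 while the other 5 AAV-Cre arrays averaged 16.08, and its difference was 0.02 without the array and -0.45 with it. *Gstm4* and *Gstm1* then differed by -0.60 and -0.44. The medians of the other 9 lists lay between -0.06 and 0.07 without that array. No test of the list was made. Isolation stress and immediate early genes gave 0 calls among 11 (median 0.02), with *Fos* at 0.98 (SE 0.25, limma adjusted p = 0.26) and *Jun* at 0.17 (SE 0.12). Mean log2 values of that list were 9.67 to 10.34 on AAV-Cre and 9.58 to 10.10 on AAV-GFP arrays.

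**Figure D5:**
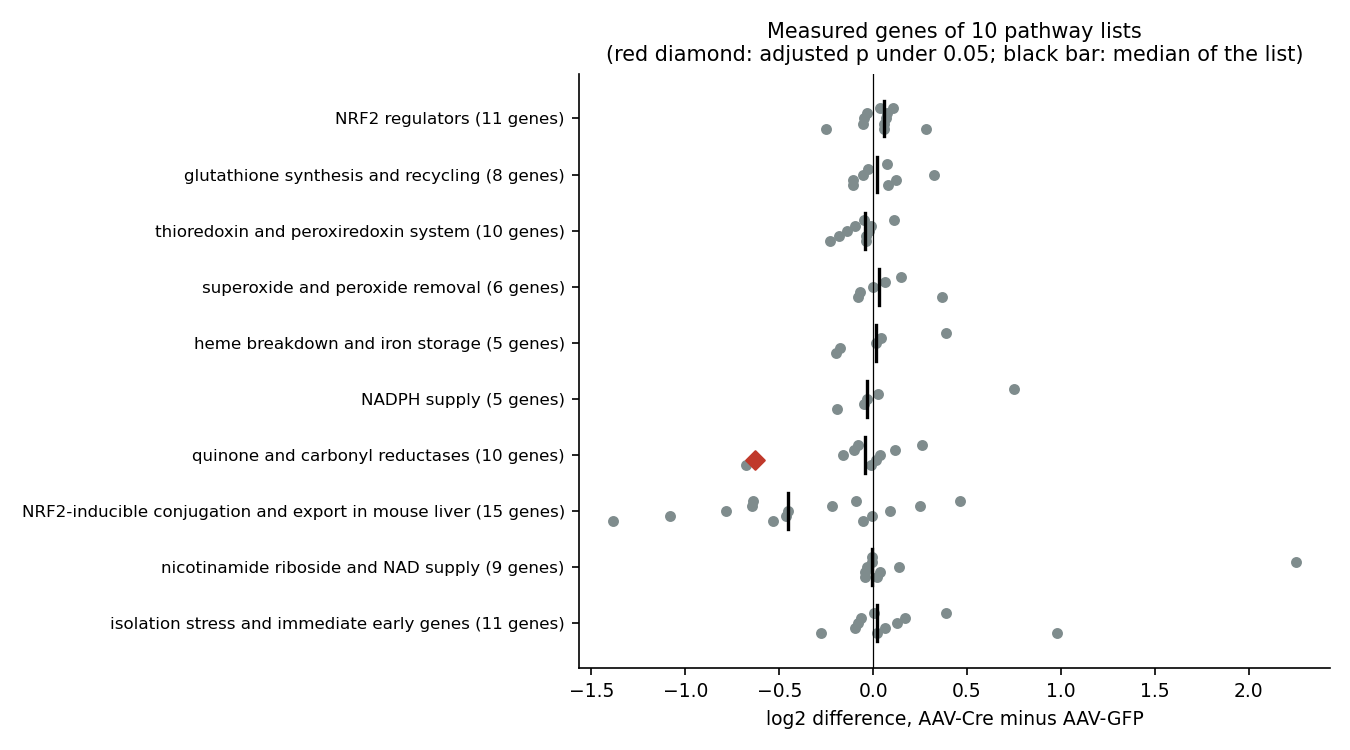
Log2 difference, AAV-Cre minus AAV-GFP, of the measured genes of 10 pathway lists, 1 dot per gene (most intense probe), a red diamond for a gene with a limma adjusted p under 0.05 and a black bar for the list's median. Nqo2, chosen on this contrast, is the single diamond, 9 list medians lie between -0.05 and 0.06, and that of the NRF2-inducible conjugation and export genes is at -0.45 (-0.16 without AAV-Cre replicate 3).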

How the data were processed

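The authors amplified and labelled the RNA and exported from GenomeStudio, version not given in the sources used here, a linear probe intensity that still holds the background, and a detection p-value that the deposited table gives for each probe and array. Their deposited value table holds quantile-normalized intensities filtered on detection and served as an alternative. The number of arrays limits the precision.

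From the exported intensity of 45281 probes, values were quantile-normalized and log2-transformed. The detection filter (a detection p of at most 0.05 on at least 1 array) kept 20561 probes. Gene symbols were those of the platform annotation (16568 kept probes named, 3993 unnamed here). Limma 3.58.1 in R 4.3.3 (two-sided, Benjamini-Hochberg over all kept probes, called at an adjusted p under 0.05) compared AAV-Cre with AAV-GFP, after a check on simulated data. Exact permutation tests used all 924 assignments. Alternatives were normexp (offset 16), median scaling, the authors' values, detection on 6 arrays, no filter, the replicate number as a block, SAM with 100 permutations and each array left out. Chip positions and protein sequences were not used here.

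Named were all members with all their probes, the called genes and up to 2 further genes of lowest p in each list, the 5 genes most like *Nqo2*, the measured ones of the 5 genes on either side of it, and markers as counts and ranges. The targeted genes, the sex-linked transcripts, *Cyb5r3* as a list gene, *Gstp1*, *Mgst1*, *Abcc2*, *Abcc3*, *Abcc4* and *Reln* were named after their values were seen. The members and lists were chosen with earlier results of these data known.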

Additional observations from a re-analysis of the deposited data

Results flagged for a closer look

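In groups of 6 arrays, 3 of the 32 combinations of member probe and group held an array set apart from the rest of its group by more than Dixon's critical share of the group's range, where chance gives about 1 in 20. At *Nqo2* probe ILMN_2968729, AAV-GFP replicate 6 was the lowest at 12.03, with the difference at -0.75 without it. At *Nqo1*, AAV-Cre replicate 3 was the highest at 8.92. At *Keap1* probe ILMN_2621346, AAV-Cre replicate 1 was the highest at 9.87.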

How the results depend on the processing

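The number of called probes, 34, was 18 with normexp, 10 with median scaling, 20 with the replicate number as a block, and 19 to 42 when 1 array was left out. The most intense *Nqo2* probe kept its sign in all 19 alternatives and passed in 18, with -0.57 under median scaling as the exception and -0.66 to -0.59 when 1 array was left out. Median scaling moved the median of all probes from 0.002 to 0.03, and the cause was not tested. ILMN_1247930 passed in 10 and ILMN_2968729 in 6 of 19, with neither passing under normexp, median scaling or the block. The replicate numbers were not treated as pairs, because the labels do not say that they mark any and same-numbered deviations, correlated at -0.20 to 0.40, passed 0.1 in 4 of 6 pairs. As a hint from the data only, 4 of 6 AAV-Cre arrays were closest to the AAV-GFP array of their own number. Other members gave 0 calls in every alternative. Signs turned under median scaling for *Srxn1* (0.0197 at ILMN_2677772, 0.00432 at ILMN_2667346) and *Keap1* ILMN_2993267 (0.0219). With 1 array left out, ranges that held both signs were -0.14 to 0.0554, -0.14 to 0.0167 and -0.0192 to 0.0720 for the *Srxn1* probes ILMN_2677772, ILMN_2667346 and ILMN_1229994, -0.0719 to 0.0391 and -0.0135 to 0.0527 for the *Keap1* probes ILMN_2993267 and ILMN_1258406, and -0.0562 to 0.0485 for *Nqo1*.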
